A study of Mus musculus with 8 samples.

Results

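The mRNA levels of 9 serpin genes, *Serpina3f*, *Serpina3g*, *Serpinb1a*, *Serpinb6a*, *Serpinb6b*, *Serpinb9*, *Serpine2*, *Serpinf1* and *Serpini1*, were compared in naïve CD4 T cells and in effector Th1, Th2 and Th17 cells of the mouse. The 9 genes are members of the serpin family of protease inhibitors and were chosen with earlier results of these data known. They are 9 of the 63 genes with a Serpin symbol and of the 23284 genes in all. RNA sequencing was performed on 8 libraries, with 2 libraries in each of the 4 groups, numbered replicate 1 and replicate 2. All cells came from DO11.10 Tg mice at least 6 weeks old, whose T cells carry a transgenic TCR for an ovalbumin (OVA) peptide, so that every group shares this receptor. Naïve cells were sorted from the spleen as CD4 cells low for CD44 and were not cultured. Effector cells were made from naïve cells by 6 days of culture with 0.3 μM OVA peptide and irradiated splenocytes depleted of T cells. IL-2 was added at 30 U/ml in the Th1 and the Th2 condition. The Th1 condition further had IL-12 (100 U/ml) and an antibody that blocks IL-4 (1 μg/ml), and the Th2 condition had IL-4 (100 U/ml) and an antibody that blocks IFN-γ (10 μg/ml). The Th17 condition had no added IL-2 but received 10 ng/ml of each of the cytokines IL-6, IL-1β and IL-23, and 10 μg/ml of each of the 2 blocking antibodies. The study sequenced these cells in a search for surface markers of effector CD4 T cells that go on to become memory cells.

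Serpins are folded so that a reactive centre loop is offered to a protease as bait, and most of them trap the protease in a covalent complex once the loop is cut. Clade B serpins stay inside the cell, where they guard the cytoplasm against proteases that leak from granules and lysosomes, among them the granzymes that cytotoxic lymphocytes carry. Other family members are secreted and control coagulation, plasminogen activation and matrix turnover, and a few, such as *Serpinf1*, inhibit no protease.

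Of the 9 genes, 4 lie together on chromosome 13 of mm10, and *Serpina3f* and *Serpina3g* are neighbours on chromosome 12. *Serpinb1a* spans chr13:32842092-32851185, *Serpinb6b* chr13:32965513-32979037, *Serpinb9* chr13:33004541-33017955 and *Serpinb6a* chr13:33917918-34002794. The remaining genes are *Serpine2* at chr1:79794321-79858665, *Serpinf1* at chr11:75410029-75422623 and *Serpini1* at chr3:75557533-75642523. The gene model of the deposited tables places *Serpina3f* at chr12:104214544-104221129 and *Serpina3g* at chr12:104214544-104241934, so that the longer model covers the shorter and both begin at the same base. RefSeq (GRCm38.p6) starts *Serpina3g* further downstream, at base 104236147. The 250 bases upstream of each RefSeq start are shown for this pair because the pair also shares transcript sequence, which bears on how its reads can be told apart. Capitals mark a match to TTCNNNGAA, the palindrome that STAT factors bind.

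Serpina3f, chr12:104214294-104214543, plus strand: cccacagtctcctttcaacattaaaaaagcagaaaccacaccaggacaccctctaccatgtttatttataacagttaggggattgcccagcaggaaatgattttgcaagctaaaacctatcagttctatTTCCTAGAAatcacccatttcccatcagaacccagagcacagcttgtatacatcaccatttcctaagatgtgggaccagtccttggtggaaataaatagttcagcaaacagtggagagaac
Serpina3g, chr12:104235897-104236146, plus strand: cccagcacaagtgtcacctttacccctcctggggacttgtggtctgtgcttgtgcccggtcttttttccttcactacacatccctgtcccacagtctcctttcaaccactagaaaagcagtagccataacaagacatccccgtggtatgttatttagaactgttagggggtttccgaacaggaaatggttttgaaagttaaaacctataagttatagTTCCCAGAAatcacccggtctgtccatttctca

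The windows aligned over 144 bases, of which 119 were identical, with 3 gap bases (80.95% identity), and the STAT match of each window lay inside the aligned stretch. Upstream windows were found for 8 of the 9 serpins, and 3 of these 8 held TTCNNNGAA (*Serpina3f*, *Serpina3g* and *Serpinb6a*), against 7.02% of 32851 windows of the same length. The AP-1 motif TGANTCA was in 0 of the 8 windows and in 6.75% of all windows. The GATA motif AGATAA was in 1 (*Serpinf1*) and in 9.99% of all windows. Both strands were searched. These matches are a description of letters only.

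Levels are given as FPKM, fragments sequenced from a gene relative to the length of its exons and to the total of the library. Differences were tested with limma on log2(FPKM + 1) in the 11198 genes whose FPKM averaged 1 or more, and a call is an adjusted p under 0.05 (Benjamini-Hochberg over all genes tested, two-sided). The pseudocount of 1 pulls the difference of a low gene toward 0. Of the 9 serpins 7 were tested, and *Serpina3f* (mean FPKM 0.539) and *Serpini1* (0.860) fell short of this minimum. The depth implied by the confidence intervals was 14463466 to 21058286 fragments per library, lowest in the naïve libraries. The labels held against their markers. *Ccr7* and *Lef1* fell in all 3 effector groups, and the effector marker *Cd44* rose in all 3. Against naïve cells the Th1 marker *Il12rb2* rose in Th1, and the Th2 markers *Gata3*, *Il4* and *Il13* rose in Th2. The Th1 markers *Tbx21* and *Ifng* and the Th17 markers *Il17a* and *Il17f* pass the filter only through that subset. Their mean levels are therefore given without a test. *Tbx21* and *Ifng* were at 47.9 and 708 FPKM in Th1, beside 0.373 and 0.328 in naïve cells. *Il17a* and *Il17f* were at 341 and 996 FPKM in Th17, beside 0.0226 and 0.381 in naïve cells. The 5 T cell markers summed to 1037 to 1630 FPKM, against 2.50 to 12.9 for 6 B cell markers and 0.728 to 3.93 for 6 dendritic cell markers, and further lists are given beside the serpins they move with. Neither labels nor methods say whether the 2 libraries of a group came from separate mice or cultures, so the p-values measure the spread between these libraries only. With 2 libraries per group most genes tested did not overlap between groups. The share was 82.6% for Th1, 83.8% for Th2 and 82.7% for Th17 against naïve cells. It was 73.8% for Th1 against Th2, 74.8% for Th17 against Th2 and 62.9% for Th1 against Th17. A lack of overlap therefore says little by itself. In bulk RNA, fewer cells of a type and less RNA per cell cannot be told apart.

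**Figure D1:**
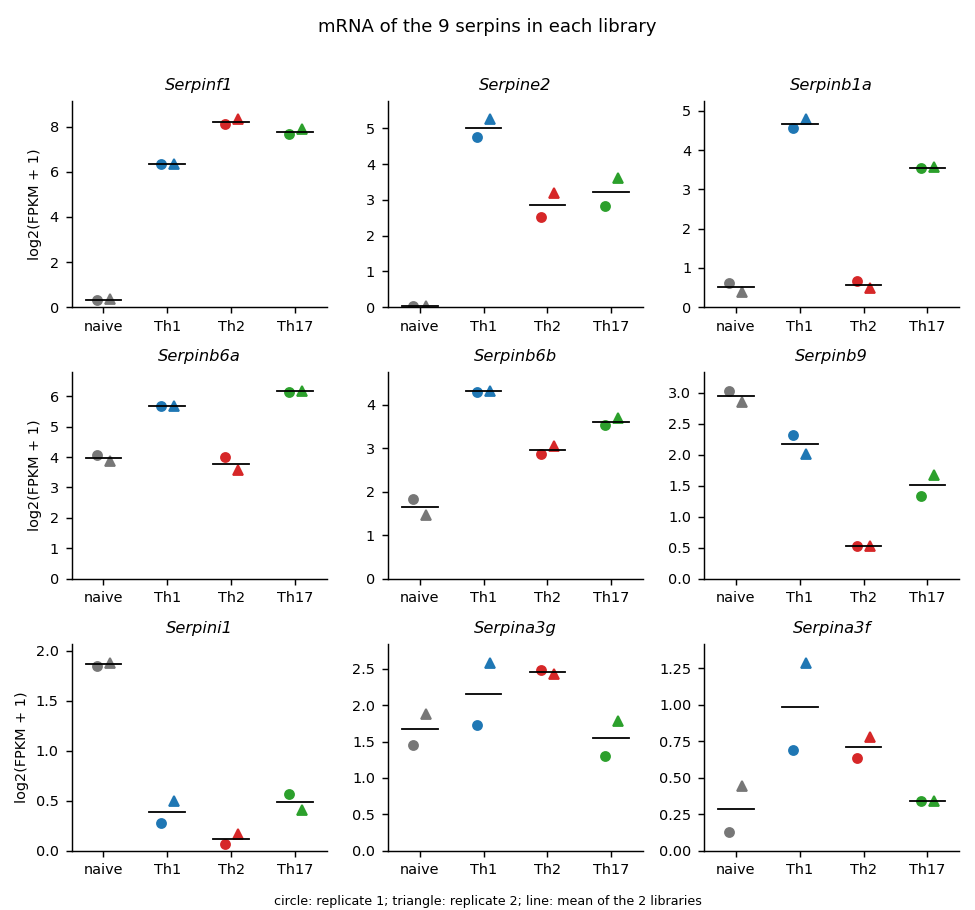
Level of each of the 9 serpins in each library, as log2(FPKM + 1), by group (naive, Th1, Th2, Th17). Circles are replicate 1, triangles replicate 2 and lines the mean of the 2 libraries. *Serpinf1* and *Serpine2* sit near 0 in naïve cells and rise in every effector group, *Serpinb1a* and *Serpinb6a* are high in Th1 and Th17, and *Serpinb9* and *Serpini1* are highest in naïve cells.

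*Serpinf1* had the largest difference from naïve cells of the 7 serpins tested, in each effector group with the pseudocount of 1. It encodes PEDF, a secreted serpin that acts on blood vessels and neurons and inhibits no protease. In naïve cells its FPKM was 0.237 and 0.272, from 7 and 8 implied fragments. It was 79.5 and 80.9 in Th1, 200.2 and 234 in Th17, and 277 and 319 in Th2 cells. The 6 effector libraries were all far above both naïve libraries, and the 3 effector groups did not overlap with each other. On the log2(FPKM + 1) scale *Serpinf1* rose by 6.02 in Th1 (SE 0.11, adjusted p = 1.33e-07), by 7.44 in Th17 cells (adjusted p = 1.09e-07, limma, n = 2 per group) and by 7.89 in Th2 (adjusted p = 6.01e-08). It was lower in Th1 than in Th2 cells by 1.88 (log2 difference -1.88, adjusted p = 3.78e-05) and lower in Th1 than in Th17 cells (log2 difference -1.42, adjusted p = 0.000219). Between Th17 and Th2 the difference was -0.46 (adjusted p = 0.0179), and this call was lost when only the 2 groups were fitted (adjusted p = 0.0612), without Th2 replicate 2 (adjusted p = 0.0934) and without Th17 replicate 1 (adjusted p = 0.0854). The order of levels was therefore Th2, Th17, Th1 and naïve, with the first step the least certain. Over the 3 markers of fibroblasts and stroma (*Col1a1*, *Col3a1*, *Pdgfra*), which can express *Serpinf1*, the summed FPKM was at most 0.0194 in naïve, 0.0685 in Th1, 0.349 in Th17 and 0.706 in Th2 libraries, with *Col3a1* and *Pdgfra* at 0 in both libraries of naïve, Th1 and Th2 cells. The 6 markers of monocytes and macrophages found in the tables summed to 18.5 to 19.7 in naïve, 13.2 to 14.9 in Th1, 24.1 to 25.1 in Th17 and 26.3 to 31.3 in Th2 libraries, with *Fcgr1* at 0 in Th2 and Th17. The members of this list differed. *Lyz2* and *Cd68* were highest in Th2 cells (means 15.8 and 9.75 FPKM). *Csf1r* was highest in naïve cells (3.52), with 0.187 in Th1, 0.724 in Th17 and 0.915 in Th2 cells. *Cd14* was highest in Th17 (4.08), with 2.75 in Th1, 0.548 in Th2 and 0.339 in naïve cells. The part of stromal cells, monocytes and macrophages in the difference between effector subsets was not tested.

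*Serpine2*, or protease nexin 1, is a secreted inhibitor of thrombin and of urokinase. It was close to absent in naïve cells, with FPKM of 0.0236 and 0.0237 that each rest on 1 implied fragment. In Th1 cells it reached 26.0 and 37.1, against 4.72 and 8.21 in Th2 and 6.11 and 11.2 in Th17 cells. Th1 stood above all other libraries, and the Th2 and Th17 libraries overlapped. The log2(FPKM + 1) difference from naïve was 4.97 in Th1 (SE 0.32, adjusted p = 1.42e-05), 3.18 in Th17 cells (adjusted p = 0.000118) and 2.83 in Th2 (adjusted p = 0.000201), and since naïve cells are at 1 fragment the size of these differences depends on the pseudocount (at most 7.98 in Th1 with 0.1). *Serpine2* was higher in Th1 than in Th2 by 2.14 (adjusted p = 0.00207) and than in Th17 by 1.79 (adjusted p = 0.00756), the latter no longer past the threshold without Th1 replicate 2 (adjusted p = 0.0560). Th17 and Th2 differed by 0.36 (adjusted p = 0.400), and the difference took the other sign without Th17 replicate 2. The replicate 2 library was the higher in each effector group, by 1.43 times in Th1, 1.83 times in Th17 and 1.74 times in Th2.

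*Serpini1*, or neuroserpin, is a secreted inhibitor of tissue plasminogen activator known mainly from neurons. Its FPKM was 2.61 and 2.68 in naïve cells, from 175 and 179 implied fragments. It was 0.211 and 0.409 in Th1, 0.476 and 0.325 in Th17, and 0.0447 and 0.125 in Th2 cells. Both naïve libraries were above all 6 effector libraries. Its mean over all libraries was under the filter and so no call was made in the fit described above. When all genes were tested with no filter, it fell by 1.48 in Th1 (adjusted p = 0.000467, limma), by 1.38 in Th17 (adjusted p = 0.000493) and by 1.75 in Th2 cells (adjusted p = 0.000232). The naïve libraries, where it was highest, were the shallowest. Between effector groups no difference passed the threshold in this fit, the nearest being Th17 against Th2 (0.37, adjusted p = 0.0588).

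The 4 clade B serpins of chromosome 13 did not move as a group. *Serpinb1a* inhibits neutrophil elastase, proteinase 3 and cathepsin G. It was 22.4 and 26.5 FPKM in Th1 and 10.6 and 10.8 in Th17 cells, but only 0.573 and 0.397 in Th2 and 0.535 and 0.316 in naïve cells. Th1 and Th17 were separated from each other and from the low Th2 and naïve libraries, which overlapped. The log2(FPKM + 1) difference was 4.16 in Th1 (SE 0.13, adjusted p = 5.2e-07) and 3.04 in Th17 (adjusted p = 1.77e-06) against naïve cells, and 4.10 for Th1 against Th2 (adjusted p = 2.81e-06), 2.98 for Th17 against Th2 (adjusted p = 1.49e-05) and 1.12 for Th1 against Th17 (adjusted p = 0.00104). Th2 and naïve cells differed by 0.06 (adjusted p = 0.692), and after quantile normalization *Serpinb1a* was lower in Th2 than in naïve cells (log2 difference -0.62, adjusted p = 0.00259). Of its 50-base words 3.12% occur in another gene, namely *Serpinb1b*, *Serpinb1c* and a pseudogene. *Serpinb1b* stayed at or below 0.493 FPKM and *Serpinb1c* at or below 0.621 in every library. Of 4 markers of mast cells and basophils, *Kit* alone was high in the same groups, at means of 3.01 FPKM in Th1 and 1.74 in Th17 against at most 0.345 in any naïve or Th2 library. *Cpa3* was instead lower in Th1 and Th17 (0.0130 and 0.0124 FPKM) than in naïve and Th2 cells (0.0700 and 0.133), *Mcpt8* was at most 0.0523 in any library and at 0 in Th1, and *Fcer1a* was at 0 in all 8. Summed, the 4 markers were at 2.30 to 3.76 in Th1 and 1.505 to 2.06 in Th17 libraries against 0.197 to 0.459 in Th2 and naïve libraries. The part of these cells in the *Serpinb1a* level was not tested.

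*Serpinb6a*, an inhibitor of cathepsin G and of trypsin-like proteases, had the highest FPKM of the 4 in every group. It was 69.4 and 70.8 FPKM in Th17 and 50.03 and 50.11 in Th1 cells, against 15.6 and 13.5 in naïve and 15.0 and 10.8 in Th2 cells. As with *Serpinb1a*, both Th1 and Th17 were above the Th2 and naïve libraries, which overlapped. It rose by 1.72 in Th1 (SE 0.15, adjusted p = 6.59e-05) and by 2.19 in Th17 (adjusted p = 1.76e-05) over naïve cells on the log2 scale. Against Th2 it was higher by 1.89 in Th1 (adjusted p = 0.000121) and by 2.37 in Th17 cells (adjusted p = 7.4e-05). The Th1 and Th17 libraries did not overlap, yet their difference of -0.48 missed the threshold (adjusted p = 0.0610). It passed when only the 2 groups were fitted (adjusted p = 0.0189), with the replicate number as a block (0.0327) and without either Th2 library (adjusted p = 0.0208 and 0.0206). Th2 differed from naïve cells by -0.17 (adjusted p = 0.334), with a call without Th2 replicate 1 (-0.39, adjusted p = 0.0294) and the opposite sign without Th2 replicate 2.

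*Serpinb6a* is the serpin of this set whose reads are the least certain. Its exons overlap those of *Nqo2* by 762 bases (14.1% of its exon bases), of 1110046J04Rik by 584 bases (10.8%) and of *Ripk1* by 241 bases (4.46%), each on the opposite strand, and 25.7% of its 50-base words occur in another gene on either strand. These words come from its coding transcripts only, and none of them was found in *Nqo2*. The labels name a stranded library kit and the methods an unstranded kit, so it cannot be told whether reads of these genes were kept apart. *Nqo2* was at 10.4 FPKM in Th1, 4.32 in Th17, 1.51 in naïve and 0.256 in Th2 cells. *Ripk1* was at 23.7, 17.8, 15.5 and 10.9 FPKM in the same order, with both highest in Th1 cells. The level of 1110046J04Rik, which shares the most of the *Serpinb6a* words (17.26%), was low but highest in Th17 and next in Th1 cells, as that of *Serpinb6a* was, at 2.17 FPKM in Th17, 0.986 in Th1, 0.202 in Th2 and 0.0765 in naïve cells. Both *Nqo2* and *Ripk1* were higher in Th1 than in Th17 (log2 differences 1.11 and 0.39, adjusted p = 0.000887 and 0.0407). The part of reads from these 3 genes in the *Serpinb6a* level was not tested. Th17 replicate 2 had a confidence interval of 15.2% on either side of the *Serpinb6a* value, against 4.06% in Th17 replicate 1 at a like FPKM, so the *Serpinb6a* estimate is less precise there.

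*Serpinb6b* is known as an inhibitor of granzyme A and is carried by cytotoxic lymphocytes. It was 2.55 and 1.76 FPKM in naïve, 6.37 and 7.37 in Th2, 10.6 and 12.03 in Th17, and 18.7 and 19.0 in Th1 cells. No group overlapped with another, where 62.9% to 83.8% of all genes tested did not overlap in a given comparison. Each step from naïve to Th2, Th17 and Th1 was larger than the spread between replicates. The rise over naïve cells was 2.67 in Th1 (SE 0.14, adjusted p = 5.72e-06), 1.97 in Th17 (adjusted p = 2.12e-05) and 1.33 in Th2 (adjusted p = 0.000146) on the log2 scale. *Serpinb6b* was higher in Th1 than in Th2 by 1.34 (adjusted p = 0.00043). The smaller steps were 0.64 for Th17 over Th2 (adjusted p = 0.0110) and 0.69 for Th1 over Th17 (adjusted p = 0.0127). The first of these missed the threshold without Th2 replicate 1 (adjusted p = 0.0602) or Th17 replicate 2 (0.0780), and the second without either Th1 library (adjusted p = 0.0662 and 0.0730) or Th17 replicate 1 (0.0857). *Serpinb6a* and *Serpinb6b* share 0.283% of the words of *Serpinb6a*, and their longest identical run is 57 bases.

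*Serpinb9* (SPI6) is the intracellular inhibitor of granzyme B and was the only tested serpin of the 7 that fell in every effector group. It was 7.16 and 6.25 FPKM in naïve, 4.0 and 3.04 in Th1, 1.52 and 2.21 in Th17, and 0.441 and 0.447 in Th2 cells. The 4 groups did not overlap. On the log2 scale it fell by 0.78 in Th1 (SE 0.16, adjusted p = 0.0042), by 1.43 in Th17 (adjusted p = 0.000194) and by 2.41 in Th2 (adjusted p = 1.35e-05). Against Th2 it was higher in Th1 by 1.64 (adjusted p = 0.000295) and in Th17 by 0.98 (adjusted p = 0.00348). The step of 0.66 between Th1 and Th17 (adjusted p = 0.0244) was not past the threshold without a filter (adjusted p = 0.0776), in a fit of the 2 groups alone (0.0707), without Th1 replicate 1 (0.131) and without Th17 replicate 1 (0.117). Naïve libraries also held more *Cd8b1*, at 90.5 and 52.8 FPKM against 8.77 to 12.9 in effector libraries, with *Cd8a* at 2.94 and 1.77, and the 4 markers of CD8 T and NK cells summed to 54.9 to 93.6 in naïve, 9.24 to 11.4 in Th1, 10.2 to 13.2 in Th17 and 9.05 to 13.1 in Th2 libraries, with *Ncr1* at 0 in all effector groups. *Cd8b1* made up most of each sum. *Klrb1c*, the remaining marker of the 4, was instead lowest in naïve cells (mean 0.0725 FPKM). It was at 0.0781 in Th2, 0.337 in Th17 and 0.463 in Th1 cells. Between the naïve libraries *Cd8b1* differed by 37.7 FPKM and *Serpinb9*, which is at a lower level, by 0.914 FPKM, and both were higher in replicate 1. The part of CD8 T cells in the naïve *Serpinb9* level was not tested.

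*Serpina3g* (Spi2A) protects the cytosol against lysosomal cathepsins. Its levels were low in every group, with 1.75 and 2.68 FPKM in naïve, 2.33 and 5.0 in Th1, 1.47 and 2.45 in Th17, and 4.61 and 4.41 in Th2 cells. The Th2 libraries lay above the naïve and Th17 libraries, and Th1 overlapped with every other group because its 2 libraries differed by 2.15 times. The log2 difference from naïve was 0.49 in Th1 (SE 0.30, adjusted p = 0.188), -0.12 in Th17 (adjusted p = 0.735) and 0.79 in Th2 (adjusted p = 0.0492). The Th2 call is at the edge, since the adjusted p ranged from 0.0119 to 0.215 over 18 alternatives and passed in 9 of them. Th17 was below Th2 (log2 difference -0.92, adjusted p = 0.0457), and this call passed in 11 of 18 alternatives, with adjusted p from 0.0116 to 0.206. Th1 was not shown to differ from Th2 (log2 difference -0.30, adjusted p = 0.453) or from Th17 (0.61, adjusted p = 0.196), though without Th1 replicate 1 it was above naïve (0.91, adjusted p = 0.0259) and above Th17 (1.04, adjusted p = 0.0499).

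*Serpina3f*, a close relative of *Serpina3g*, was lower still. It was 0.0910 and 0.361 FPKM in naïve, 0.611 and 1.44 in Th1, 0.267 and 0.266 in Th17, and 0.555 and 0.719 in Th2 cells, from 2.6 to 74.8 implied fragments. Only Th1 replicate 2 exceeded an FPKM of 1, and it was also the highest library of *Serpina3g*. When no filter was applied, no comparison of *Serpina3f* passed the threshold (adjusted p = 0.0769 to 1). Of its 50-base words 6.03% occur in *Serpina3g* and 10.6% in any other gene, and 15.9% of the words of *Serpina3g* occur in another gene, led by *Serpina3h* (9.11%) and *Serpina3i* (7.01%). The longest stretch that both transcripts share is 119 bases, longer than a 50-base read, so some reads of the pair match both genes. *Serpina3h* and *Serpina3i* were at or below 0.294 FPKM in every library.

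Against naïve cells, 5 of the 7 serpins tested rose and 1 fell in Th1, where 33.8% of all genes tested rose and 33.5% fell (67.3% called in either direction). In Th2, 4 rose and 1 fell, against 31.8% and 38.7% of all genes (70.5% in either direction). In Th17, 5 rose and 1 fell, against 37.5% and 29.8% (67.3% in either direction). Most genes were called in these comparisons, so the number of serpins called says little by itself. The median log2 difference of the 7 serpins was 2.67 for Th1, 2.19 for Th17 and 0.79 for Th2, beside -0.01, 0.08 and -0.11 over all genes tested. The 3 comparisons share the naïve libraries.

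Between effector subsets, 5 of the 7 serpins were higher and 1 lower in Th1 than in Th2, where 27.4% and 16.9% of all genes were (44.3% in either direction). In Th17 against Th2, 4 were higher and 2 lower, against 31.7% and 12.0% of all genes (43.6% in either direction). In Th1 against Th17, 4 were higher and 1 lower, against 9.17% and 16.0% (25.1% in either direction). The Th1 against Th17 count of 5 calls was 3 without Th1 replicate 2 or without Th17 replicate 1. The median log2 difference of the 7 serpins was 1.64, 0.64 and 0.66 in these comparisons, beside 0.11, 0.18 and -0.08 over all genes. Of the calls over all genes, 61.8% were higher in Th1 than in Th2, 72.6% in Th17 than in Th2 and 36.5% in Th1 than in Th17, and after median scaling these shares were 51.6%, 50.9% and 49.2%. Median scaling moved the median of all genes in Th17 against Th2 from 0.18 to 0.0049, while the serpin calls stayed at 5 and 1, 4 and 2, and 4 and 1.

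**Figure D2:**
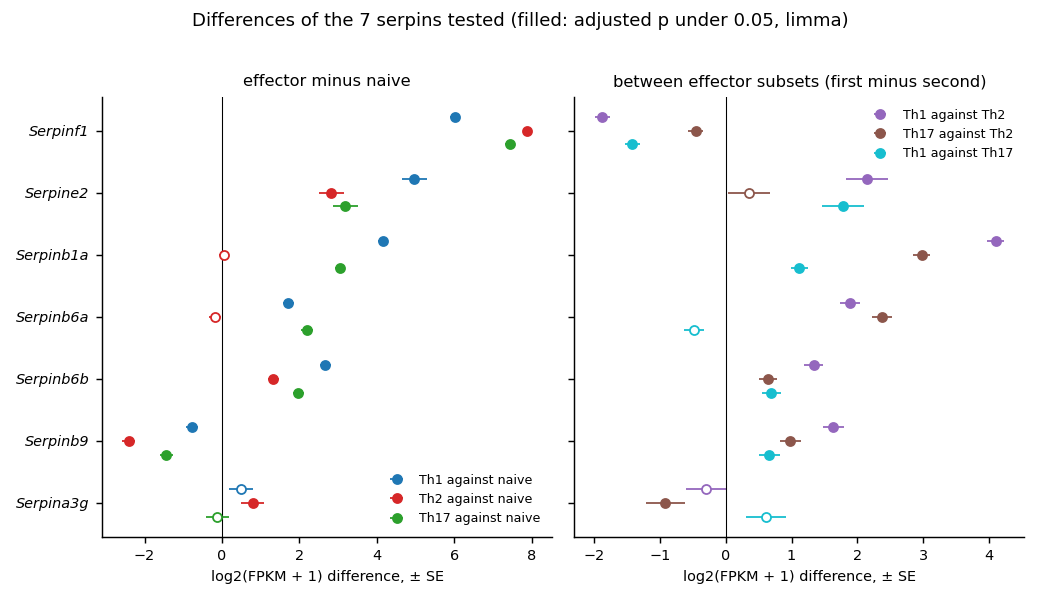
Difference in log2(FPKM + 1) for the 7 serpins tested, with bars of 1 SE from limma, for each effector group minus naïve (left) and between effector groups (right). Filled points passed an adjusted p under 0.05. *Serpinf1* is the farthest right on the left panel (6.02 to 7.89) and the only serpin whose 3 differences on the right panel are all below 0, and *Serpinb9* is below 0 in all 3 comparisons with naïve cells.

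Other members of the family were examined to place these 9. Of the 54 other serpin genes, 51 stayed below an FPKM of 1 in every library, of which 19 were listed at 0 in all 8. Of the others, *Serpinb5* and *Serpinb2* are described here. *Serpinb5*, or maspin, which is not known to inhibit proteases, was 18.6 and 17.4 FPKM in Th1 and 2.50 and 1.61 in Th17 cells, and at most 0.0562 in the 4 Th2 and naïve libraries. Both Th1 and Th17 were thus above the Th2 and naïve libraries, as for *Serpinb1a*. *Serpinb5* passes the filter only through its Th1 libraries, so it was tested with no filter, where it rose by 4.22 in Th1 (adjusted p = 9.06e-05, limma) and by 1.57 in Th17 cells (adjusted p = 0.00139), with 0.04 in Th2 (adjusted p = 1). *Serpinb2*, or PAI-2, was 2.37 and 1.90 FPKM in Th17, 0.423 and 0.555 in Th1, at most 0.0563 in Th2, and listed at 0 in both naïve libraries. It was not tested under the filter.

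**Figure D3:**
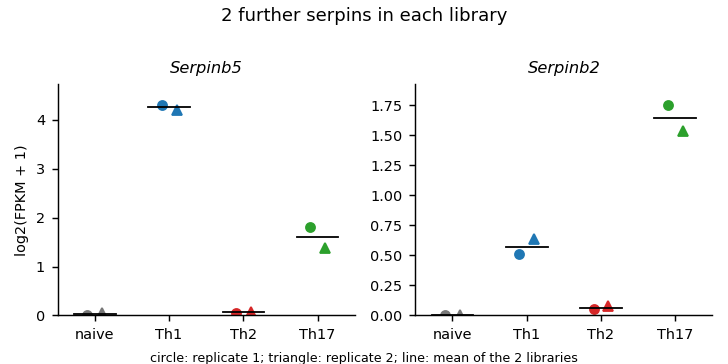
Level of *Serpinb5* and *Serpinb2* in each library, as log2(FPKM + 1), by group. Circles are replicate 1, triangles replicate 2 and lines the mean of 2 libraries. *Serpinb2* is highest in Th17 and *Serpinb5* in Th1 cells, and both are near 0 in naïve cells.

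The proteases that serpins act on, or that share a compartment with them, were set beside these levels. Of the 31 proteases listed 18 were tested, and 12 rose and 3 fell in Th1, 10 rose and 4 fell in Th2, and 8 rose and 3 fell in Th17 against naïve cells. These counts stand beside 67.3%, 70.5% and 67.3% of all genes called in Th1, Th2 and Th17, in either direction. The 3 granzymes tested of 10 rose in all 3 subsets. *Gzmb*, the target of *Serpinb9*, was 0.252 and 0.941 FPKM in naïve, 1606 and 1823 in Th1, 191 and 248 in Th17, and 532 and 351 in Th2 cells. Its log2 rise was 10.10 in Th1 (adjusted p = 3.6e-07), 7.13 in Th17 cells (adjusted p = 1.18e-06) and 8.12 in Th2 (adjusted p = 6.33e-07), while *Serpinb9* fell in each of them. Between Th17 and Th2 the difference of *Gzmb* was -0.99 (adjusted p = 0.0263), where that of *Serpinb9* was 0.98. Both genes were instead higher in Th1 than in either other effector group. *Gzmb* was above Th2 by 1.98 (adjusted p = 0.00148, limma) and above Th17 by 2.97 (adjusted p = 0.000403), beside 1.64 and 0.66 for *Serpinb9*. *Gzma*, the target of *Serpinb6b*, was 5.71 and 6.90 FPKM in naïve, 61.1 and 75.5 in Th1, 22.3 and 41.0 in Th17, and 2601 and 2041 in Th2 cells. *Gzma* was thus highest in Th2 (log2 rise 8.31, adjusted p = 6.3e-07), the effector group with the lowest *Serpinb6b*. *Gzmc* rose by 2.49 in Th1, 1.58 in Th17 and 0.82 in Th2 cells (adjusted p = 8.04e-05, 0.000731 and 0.0149).

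**Figure D4:**
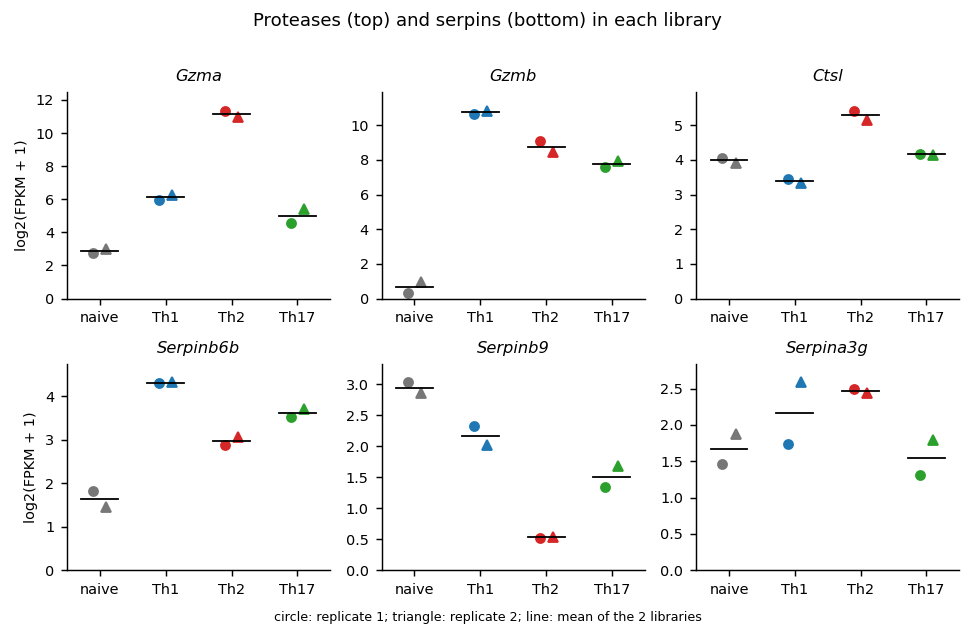
Level of *Gzma*, *Gzmb* and *Ctsl* (top) and of *Serpinb6b*, *Serpinb9* and *Serpina3g* (bottom) in each library, as log2(FPKM + 1), with a separate axis for each gene. Circles are replicate 1, triangles replicate 2 and lines the mean of 2 libraries. *Gzmb* is lowest and *Serpinb9* highest in naïve cells, and *Gzma* is highest in Th2, where *Serpinb6b* is at 6.37 and 7.37 FPKM.

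Among cathepsins, lysosomal proteases of which *Serpina3g* inhibits some but not all, 11 of 12 were tested. In Th1 cells 7 rose and 3 fell, in Th2 cells 6 rose and 4 fell, and in Th17 cells 3 rose and 3 fell. Over all genes tested 33.8% rose and 33.5% fell in Th1 cells, 37.5% rose and 29.8% fell in Th17 cells, and 31.8% rose and 38.7% fell in Th2 cells. *Ctsl* rose in Th2 (log2 difference 1.29, adjusted p = 6.26e-05) and fell in Th1 cells by 0.59 (adjusted p = 0.00342), and *Ctsh* rose in Th2 cells by 2.41 (adjusted p = 9.99e-06). In Th17 against Th2, where *Serpina3g* was lower by 0.92, 4 of the 11 cathepsins were higher and 3 lower, against 31.7% and 12.0% of all genes. The lower ones included *Ctsl* (log2 difference -1.12, adjusted p = 0.000563) and *Ctsh* (-2.04, adjusted p = 0.000134). The higher ones included *Ctsc* (0.84, adjusted p = 0.00261) and *Ctss* (0.76, adjusted p = 0.00147, limma). Among caspases, *Casp1* rose in Th1 and Th17 (2.25 and 1.71), and *Casp8* passed in none. The plasminogen activators and thrombin (*Plat*, *Plau*, *F2*), which *Serpine2* and *Serpini1* act on, had 0 of 3 genes tested. Among partners of serpins, *Prf1*, the perforin that delivers granzymes, fell by 1.20 in Th1, 1.63 in Th17 and 1.92 in Th2 cells. *Plaur*, the urokinase receptor, rose by 3.08 in Th17 (adjusted p = 2.33e-06) and by 0.58 in Th2 cells (adjusted p = 0.00784). The lipase gene *Pnpla2*, whose product binds PEDF, passed in none of the 3 comparisons with naïve cells, and *Lrp1*, which takes up serpin complexes, was below the filter.

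The neutrophil serine proteases that *Serpinb1a* inhibits were at low levels and split by replicate. *Elane* was 2.59, 3.71 and 3.60 FPKM in replicate 1 of Th1, Th2 and Th17 and 0 in replicate 2 of each, and passed in none of the comparisons with naïve cells. The 9 markers of neutrophils and their precursors found in the tables summed to 8.70 to 9.52 in replicate 1 and 0.538 to 0.952 in replicate 2 of the effector groups, and to 0.506 to 1.61 in naïve libraries, with *S100a9* and *Camp* at 0 in all 6 effector libraries. *Serpinb1a* was higher in replicate 2 than in replicate 1 of Th1 (26.5 against 22.4 FPKM) and Th17 (10.8 against 10.6), and lower in replicate 2 of Th2 (0.397 against 0.573) and naïve cells (0.316 against 0.535). The part of neutrophils in the *Serpinb1a* level was not tested.

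The genes most like each serpin over the 8 libraries were found by Pearson correlation of log2(FPKM + 1) with 11197 genes, as a description in which the 8 points form 4 groups. *Serpinf1* was nearest to *Tnfrsf8* (r = 0.999), which encodes CD30, the receptor the study is about, and to *Pcx* (r = 0.999). *Tnfrsf8* was at 0.0800 FPKM in naïve, 76.7 in Th1, 246 in Th17 and 273 in Th2 cells, beside 0.255, 80.2, 217 and 298 for *Serpinf1*, and the gene ranked 10 still had r = 0.998. *Serpinb1a* was nearest to *Ccdc14* and to *Klrc1* (r = 0.996 each), *Serpinb6a* to *Adprh* (0.997) and *Hn1l* (0.996), and *Serpinb6b* to *Ccnd3* (0.994) and *Pmaip1* (0.993). *Serpinb9* was nearest to *Vps37b* (0.992) and *Rcsd1* (0.989), *Serpine2* to *Fam120a* (0.996) and *Unc93b1* (0.991), and *Serpina3g* to *Tbc1d9b* (0.935) and *Siae* (0.927). Among the serpins themselves the highest r was that of *Serpinb6b* with *Serpine2* (0.977), followed by *Serpinb1a* with *Serpinb6a* (0.922), and the lowest was that of *Serpinb9* with *Serpinf1* (-0.858).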

How the data were processed

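RNA sequencing tables of 8 libraries (naïve, Th1, Th2 and Th17, with 2 of each) were analysed. The authors aligned 50-base reads to mm10 with Bowtie 0.12.8 and TopHat 1.3.2 and deposited FPKM per gene with its confidence interval from Cufflinks 2.0.2. The gene annotation is not given in the sources used here. Rows of a repeated symbol were summed (240 symbols). Depth was estimated from the confidence intervals, which cover counting error only. The log2(FPKM + 1) values were fitted by a linear model of 4 group means (limma 3.58.1, R 4.3.3; lmFit, then eBayes with trend) for the 11198 genes with mean FPKM of at least 1, after the method was tested on simulated data, with Benjamini-Hochberg adjustment within each of the 6 comparisons. The 50-base words of each serpin came from its coding transcripts in GENCODE M21 (GRCm38) and were searched in all transcripts of that annotation. Exon overlaps were taken from all its exons, coding or not. Alignments were made with Biopython 1.88 under Python 3.11.15, and upstream sequences came from RefSeq (GRCm38.p6). The genes named were the 9 serpins, other serpins tested or with FPKM of at least 1 in at least 2 libraries, proteases and partners of serpins, cell type markers, the 2 genes nearest to each tested serpin, and genes that share over 5% of a serpin's words. *Nqo2*, *Serpinb1b* and *Serpinb1c* were added after their values were seen. The members and lists were chosen with earlier results of these data known. Some of the genes and motifs searched are not reported here. Groups were taken from the sample labels. The alternatives were a pseudocount of 0.1, other filters, median scaling, quantile normalization, a fit of 2 groups, no trend, the replicate block, the highest row of a repeated symbol, an estimation status of OK, and each library left out.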

Additional observations from a re-analysis of the deposited data

Results flagged for a closer look

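Of the differences between effector subsets, 17 of 21 passed the threshold for the 7 serpins tested (limma, adjusted p under 0.05, 2 libraries per group). Of all genes tested, 44.3% were called in Th1 against Th2, 43.6% in Th17 against Th2 and 25.1% in Th1 against Th17. For *Serpinf1* the log2(FPKM + 1) difference was -1.88 for Th1 against Th2, -0.46 for Th17 against Th2 and -1.42 for Th1 against Th17. *Serpine2* differed by 2.14 for Th1 against Th2 and by 1.79 for Th1 against Th17. *Serpinb1a* differed by 4.10 for Th1 against Th2, by 2.98 for Th17 against Th2 and by 1.12 for Th1 against Th17. *Serpinb6a* differed by 1.89 for Th1 against Th2 and by 2.37 for Th17 against Th2. For *Serpinb6b* these differences were 1.34, 0.64 and 0.69, and for *Serpinb9* they were 1.64, 0.98 and 0.66, for Th1 against Th2, Th17 against Th2 and Th1 against Th17. *Serpina3g* differed by -0.92 for Th17 against Th2.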

How the results depend on the processing

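For the 7 serpins tested, 410 of 420 values under the alternatives other than leaving out a library kept both sign and call, 7 lost the call, 2 gained it and 1 reversed. Of 336 values with a library left out, 302 kept both, 22 lost the call, 5 gained it and 7 reversed. Here the remaining library of a group is assumed to vary like the other groups. Under quantile normalization Th2 against naïve reversed for *Serpinb1a* (-0.62, now called lower) and *Serpinb5* (-0.22, not called). The reversals with a library left out all concerned differences that were not called. With 1 library left out, *Serpina3g* ranged from -0.36 to 0.12 in Th17 against naïve and from -0.73 to 0.12 in Th1 against Th2, *Serpinb1a* from -0.050 to 0.17 and *Serpinb6a* from -0.39 to 0.046 in Th2 against naïve, and *Serpine2* from -0.029 to 0.74 in Th17 against Th2. With a library left out, the serpins called in Th1 against Th17 numbered 3 to 6 (5 with all libraries). Over all genes the calls numbered 3106 to 4936 in Th1 against Th2 (4961), 2738 to 4876 in Th17 against Th2 (4885) and 1558 to 2759 in Th1 against Th17 (2815), the lowest without Th1 replicate 2, Th17 replicate 2 and Th1 replicate 2. The cause was not tested.

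The labels give all groups the replicate numbers 1 and 2, which pair only 2 libraries per comparison. The differences between replicates correlated at 0.138 to 0.294 across 11198 genes between pairs of groups, and nothing in the labels says that a number marks a shared culture. With the replicate number as a block, *Serpinb6a* in Th1 against Th17 passed the threshold (-0.48, adjusted p = 0.0327) and no other call of a tested serpin changed. Depth limited the lowest values, as *Serpine2* in naïve cells rests on 1 implied fragment per library and *Serpinf1* on 7 and 8.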
